A study of Mus musculus with 12 samples.

Results

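The proteasome genes described here are those of the mouse genome whose symbols follow the Psma to Psmg pattern with a number, leaving out Psmb8, Psmb9 and Psmb10, which encode the immunoproteasome subunits. Each gene was represented by the probe set that carries its symbol alone and has the highest mean signal. The pattern matched 44 of 17097 measured genes. Of these, 42 encode subunits, regulators or assembly factors of the proteasome, and 2 (Psmc3ip and Psme3ip1) share only the letters of the symbol. Psmc6, Psmd10 and Psme4 were not analysed here. Expression was measured in CT26 cells, a mouse colon carcinoma line, on 12 Affymetrix arrays, 3 in each of 4 groups. Control (CTR) cells were kept in DMEM with 1.0 g/L glucose and 10% fetal bovine serum. Cells under short-term starvation (STS) were given 0.5 g/L glucose and 1% serum for 48 hours. Oxaliplatin (OXP), which forms platinum adducts on DNA, was added 24 hours after STS by the study's methods, while a legend of the study places it after the 48 hours. The concentration was 10 µM according to the labels, although the study's legends state another. Oxaliplatin was given in control medium (OXP) or in STS medium (STS+OXP). Whether each array was a culture of its own is not given in the sources used here, so p-values measure the spread between arrays, which may be technical.

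The proteasome degrades proteins marked with ubiquitin. Its core particle is a barrel of stacked alpha and beta rings with the proteolytic sites inside, and its regulatory particle, made of a base with ATPases and a lid, recognises, deubiquitinates and unfolds substrates. Other caps, such as the PA28 activators, can open the core without ubiquitin, and dedicated chaperones assemble core and base. In mammalian cells the transcription factor NRF1 (Nfe2l1) raises proteasome genes together when proteolysis is impaired, and interferon-γ raises PA28α, PA28β and the immunoproteasome subunits.

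Values are RMA signals on the log2 scale, and differences between groups are log2 fold changes from limma with Benjamini-Hochberg adjustment over all 17097 genes. A gene is called when its adjusted p is under 0.05. Levels of different genes are not compared, because probe sets differ in brightness. In extracts of whole cultures, fewer cells of a type and less RNA per cell cannot be told apart. Array OXP 1 stood apart, with a 3′ minus 5′ difference of the Gapdh control probe sets of 3.85, against -0.12 to 0.28 on the other 11 arrays, and array OXP 2 lay closer to the STS+OXP arrays (root mean square difference 0.173) than to its own group (0.298). Among 8 colon epithelium markers, Cdh1, Krt18, Krt19 and Vil1 did not exceed the control probe sets in any group, while Epcam, Krt20 and Cdx2 were above it. Of 6 macrophage markers 3 were at that level in every group, and the summed macrophage signal was 5.62 to 6.36 in OXP and 5.60 to 5.77 in the other groups. The part of other cell types in the results was not tested.

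Most subunits of the core and base changed little in any condition, and in the lid Psmd13 fell in all of them. The PA28α and PA28β activators rose in all conditions, whereas PA28γ and the chaperone genes Psmg1 and Psmd5 fell in all of them. In STS cells 2 of 42 members were called higher and 4 lower than in CTR cells, that is 4.76% and 9.52%, beside 9.75% and 6.74% of all genes. In OXP cells 3 were higher and 11 lower (7.14% and 26.2%, against 17.5% and 13.9% of all genes). In STS+OXP cells 2 were higher and 14 lower (4.76% and 33.3%, against 16.4% and 14.2%). Among the 8548 genes above the median signal, 18.2% were called higher and 11.6% lower in STS, 31.7% and 23.6% in OXP cells and 29.5% and 25.2% in STS+OXP cells. The share of members called lower was thus above that of all genes in each comparison, but beside the brighter genes it was lower in STS, close in OXP cells and higher in STS+OXP cells, and the share called higher was below both. The median log2 fold change of the members was -0.01 in STS, -0.10 after OXP and -0.17 in STS+OXP, and that of all genes -0.03, -0.01 and 0.00. Under cyclic loess between the arrays the STS+OXP split was 4 higher and 13 lower, with Psma2 and Psmb4 gained among the higher and Psmb5 lost. Without OXP 1 and OXP 2 together, 15 members were called after OXP and 22 in STS+OXP, with the OXP group then being the single array OXP 3, assumed to vary like the other groups. These comparisons share the CTR arrays. The map of member signals by array shows Psme1, Psme2 and Psme3 as the most strongly coloured rows, with most core and base rows near the CTR mean.

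**Figure D1:**
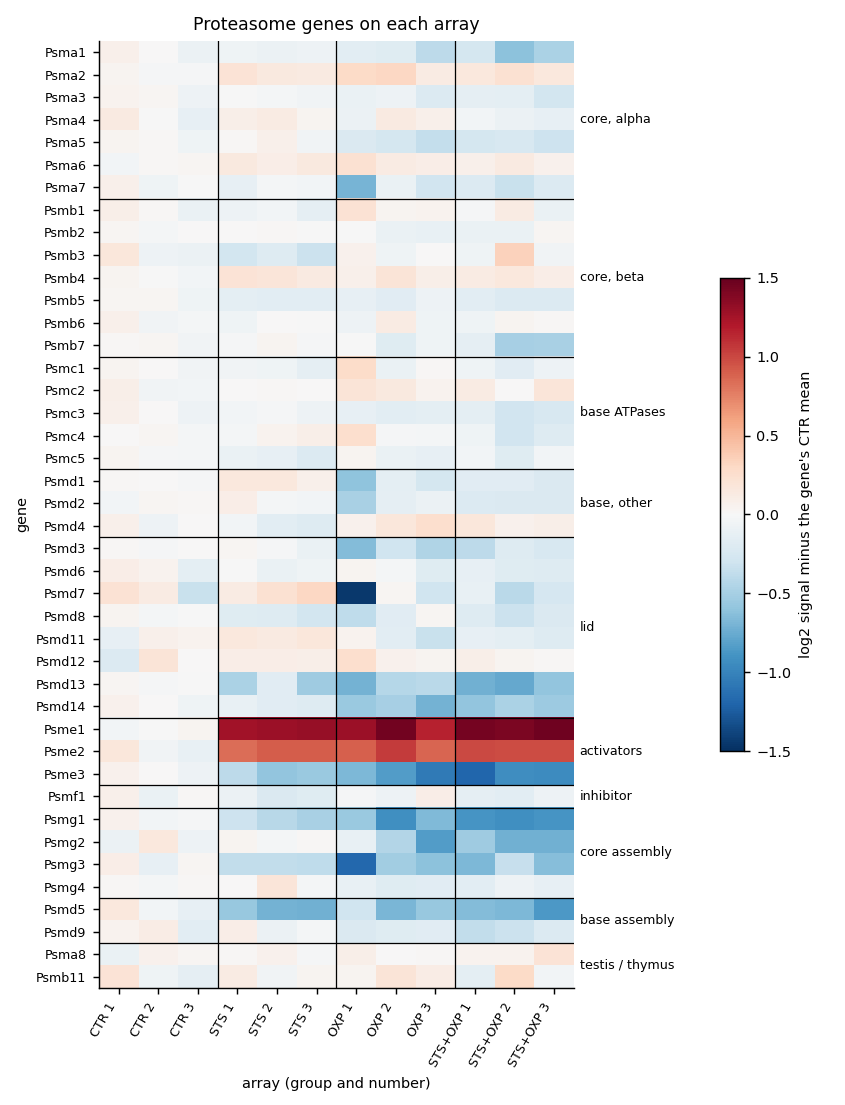
Log2 signal of the 42 proteasome genes (rows, grouped by role) on each of the 12 arrays (columns), as the difference from the gene's own CTR mean, with red above and blue below. Psme1 and Psme2 are above their CTR mean on all 9 treated arrays, Psme3 and Psmg1 are below it on all 9, and most rows of the core and base stay pale.

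The intervals of the core, base and lid genes show how close their signals were to control. The 95% interval of the log2 fold change lay within 1.5-fold of no change in all 3 comparisons with CTR for 24 of the 30 core, base and lid genes, which is 80% of them. It did so for 11325 of all 17097 genes, or 66.2%, and for 3334 of the 8548 genes above the median signal, or 39%. By part, it did so for 12 of 14 core genes (85.7%) and 8 of 8 base genes, but for 4 of 8 lid genes (50%). Of the 30 genes, 19 (63.3%) were called in none of the 3 comparisons, beside 60.6% of all genes and 32% of those above the median signal. All 3 measured activators were called in each of the comparisons with CTR, in opposite directions. The plot of changes by role shows this contrast.

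**Figure D2:**
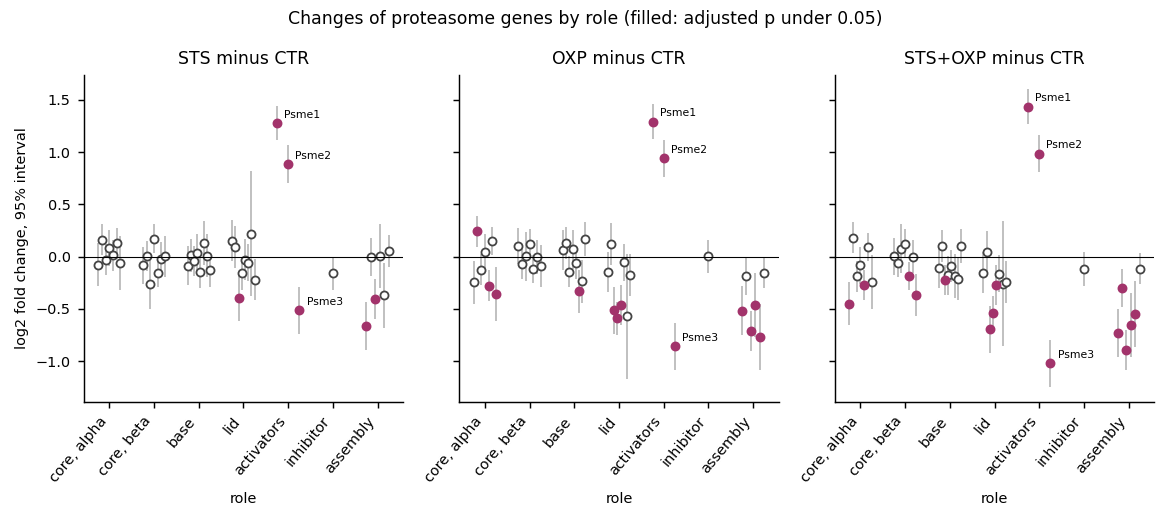
Log2 fold change against CTR of 40 proteasome genes above the control probe sets, by role, in STS (left), OXP (middle) and STS+OXP (right). Bars are 95% intervals and filled points have an adjusted p under 0.05. Psme1 and Psme2 lie far above 0 in every panel, Psme3 and most assembly factors lie below it, and the core and base points gather around it.

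Of the catalytic subunits of the core, Psmb5 and Psmb7 fell slightly in STS+OXP and Psmb6 was not called. Psmb5 encodes the chymotrypsin-like, Psmb6 the caspase-like and Psmb7 the trypsin-like subunit. The Psmb5 signal was 9.06, 9.05 and 8.95 on the CTR arrays, 8.87, 8.86 and 8.87 in STS, 8.90, 8.85 and 8.95 after OXP and 8.86, 8.82 and 8.82 in STS+OXP. All 9 treated arrays were below the CTR arrays, by small amounts. The log2 fold change was -0.16 ± 0.06 (SE, adjusted p of 0.119) in STS, -0.12 ± 0.06 (SE, adjusted p of 0.186) in OXP and -0.19 ± 0.06 (SE, adjusted p of 0.0379) in STS+OXP, and the last call was lost in 12 of 22 other analyses, among them those without CTR 1 or CTR 2, where it was -0.17 (adjusted p of 0.107 and 0.11), and those without any one of the STS or STS+OXP arrays, where it was -0.20 to -0.18 (adjusted p of 0.0507 to 0.101). Psmb6 had a signal of 8.97, 8.83 and 8.86 on the CTR arrays, 8.82, 8.89 and 8.88 in STS, 8.81, 9.01 and 8.82 after OXP and 8.82, 8.93 and 8.91 in STS+OXP. The 4 groups overlapped, and the 95% interval of the STS+OXP difference was -0.16 to 0.16. Psmb7 had a signal of 8.97, 8.99 and 8.90 on the CTR arrays, 8.94, 8.99 and 8.93 in STS, 8.94, 8.77 and 8.89 after OXP and 8.82, 8.46 and 8.47 in STS+OXP. It fell in STS+OXP cells, with a log2 fold change of -0.37 ± 0.09 (SE, adjusted p of 0.00653) against CTR and -0.37 ± 0.09 (SE, adjusted p of 0.00955) against STS, with arrays STS+OXP 2 and 3 lower than STS+OXP 1. The latter call was lost without STS+OXP 2, at -0.31 (adjusted p of 0.0504), and without STS+OXP 3, at -0.32 (adjusted p of 0.0516). In STS the Psmb7 difference was 0.00 and in OXP -0.09, neither of which passed the test.

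A few genes of the alpha ring, which gates the entrance of the core, changed after OXP. No alpha ring or beta ring gene was called in STS. In OXP cells Psma2 rose and Psma5 and Psma7 fell among the 7 alpha ring genes, and none of the 7 beta ring genes was called. The called share of the alpha ring was 42.9%, between the 31.4% of all genes and the 55.4% of those above the median signal. In STS+OXP cells Psma1, Psma5, Psmb5 and Psmb7 fell. That is 28.6% of the core genes called lower, beside 14.2% of all genes and 25.2% of those above the median signal. The Psma1 signal was 9.26, 9.19 and 9.09 on the CTR arrays, 9.11, 9.09 and 9.10 in STS, 9.02, 9.0 and 8.79 after OXP and 8.92, 8.56 and 8.70 in STS+OXP. All arrays with OXP were below all arrays without it. The log2 fold change was -0.24 (adjusted p of 0.0711) in OXP and -0.45 ± 0.10 (SE, adjusted p of 0.00208) in STS+OXP. Without OXP 1 or STS+OXP 1 the OXP value passed, at -0.29 (adjusted p of 0.0488) and -0.24 (adjusted p of 0.0418). With its 3 probe sets averaged, the STS+OXP value was -0.05 (adjusted p of 0.794), which ended the call, and the OXP value was 0.06, so the decrease rests on the brightest probe set. The mean signal of that probe set was 8.99. The others were dim, at 2.88, which did not exceed the control probe sets in any group, and 3.89. Psma7 had a signal of 9.91, 9.77 and 9.83 on the CTR arrays, 9.71, 9.82 and 9.80 in STS, 9.15, 9.74 and 9.55 after OXP and 9.64, 9.51 and 9.63 in STS+OXP, with OXP 1 the lowest array of all. It fell, with a log2 difference of -0.36 (adjusted p of 0.0339) in OXP, but without OXP 1 the value was -0.19 (adjusted p of 0.108) and the call was lost. It was also lost without CTR 1, at -0.32 (adjusted p of 0.113), and without CTR 3, at -0.36 (adjusted p of 0.0794). Psma5 fell, with log2 fold changes of -0.28 (adjusted p of 0.00566) in OXP and -0.27 (adjusted p of 0.00665) in STS+OXP. Psma2 rose by 0.24 (adjusted p of 0.014) in OXP, a call that was lost without OXP 2, at 0.21 (adjusted p of 0.0509). Psma3, Psma4 and Psma6 were called in none of the comparisons, although Psma3 passed in STS+OXP without CTR 3, at -0.23 (adjusted p of 0.0489), or OXP 3, at -0.19 (adjusted p of 0.0495).

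Among the beta ring genes without a catalytic role, Psmb1, Psmb2 and Psmb4 were called in no comparison. Psmb3 had a signal of 10.23, 9.98 and 9.97 on the CTR arrays, 9.78, 9.86 and 9.73 in STS, 10.12, 9.99 and 10.07 after OXP and 10.00, 10.41 and 10.01 in STS+OXP. The STS arrays were below all others and STS+OXP 2 was above them. Psmb3 did not pass the test in STS, at -0.27 (adjusted p of 0.131), except without STS+OXP 2, at -0.27 (adjusted p of 0.0491), but rose in STS+OXP relative to STS, at 0.34 (adjusted p of 0.0385). Its second probe set gave differences from CTR of -0.12 in STS, -0.19 after OXP and -0.05 in STS+OXP, so this rise rests on the brighter one. The call was lost when each array was centred on its median, and without STS+OXP 2, at 0.21 (adjusted p of 0.166), or any one STS array, at 0.31 to 0.38 (adjusted p of 0.0619 to 0.126). The median over the 14 core genes was -0.01 in STS, -0.04 after OXP and -0.07 in STS+OXP.

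The base, which holds the ATPases that unfold substrates and thread them into the core, stayed close to control. Of 5 measured ATPase genes (Psmc1 to Psmc5), 1 was called, in STS+OXP against CTR. That is 20%, beside 30.6% of all genes and 54.6% of those above the median signal. Psmc3 had a signal of 8.89, 8.83 and 8.74 on the CTR arrays, 8.78, 8.81 and 8.75 in STS, 8.69, 8.66 and 8.68 after OXP and 8.67, 8.53 and 8.58 in STS+OXP. The STS+OXP arrays lay below all CTR and STS arrays, and the log2 fold change was -0.23 ± 0.07 (SE, adjusted p of 0.0182). It was -0.22 to -0.19 without CTR 1, CTR 2, STS+OXP 2 or STS+OXP 3 (adjusted p of 0.0503 to 0.0736), and the call was then lost. Psmc4, with a signal of 9.26, 9.29 and 9.22 on the CTR arrays, 9.22, 9.31 and 9.34 in STS, 9.50, 9.24 and 9.23 after OXP and 9.19, 8.97 and 9.07 in STS+OXP, was lower on all STS+OXP arrays than on any CTR array, although the difference of -0.18 (adjusted p of 0.149) did not pass the test. Psmc1, Psmc2 and Psmc5 were called in no comparison. The large scaffold subunits of the base, Psmd1 and Psmd2, gather ubiquitin receptors. Psmd1 had a signal of 9.30, 9.29 and 9.27 on the CTR arrays, 9.44, 9.45 and 9.36 in STS, 8.69, 9.15 and 9.03 after OXP and 9.11, 9.11 and 9.07 in STS+OXP. All OXP and STS+OXP arrays were below all CTR arrays, with OXP 1 the lowest. Psmd1 fell, with log2 fold changes of -0.33 (adjusted p of 0.0163) in OXP cells and -0.32 (adjusted p of 0.0293) relative to STS in STS+OXP cells, where the call was lost without any one of the 6 arrays compared, at -0.35 to -0.30 (adjusted p of 0.0527 to 0.0915). Without OXP 1 its OXP value was -0.20 (adjusted p of 0.0466). Psmd2 had a signal of 9.23, 9.29 and 9.29 on the CTR arrays, 9.37, 9.24 and 9.22 in STS, 8.78, 9.13 and 9.18 after OXP and 9.06, 9.05 and 9.05 in STS+OXP, with the same array lowest. Its differences of -0.24 (adjusted p of 0.0762) in OXP and -0.21 (adjusted p of 0.114) in STS+OXP did not pass the test. The STS+OXP value of Psmd2 passed without OXP 1, at -0.21 (adjusted p of 0.0195), and the OXP value without OXP 3, at -0.31 (adjusted p of 0.0263), while without OXP 1 the OXP value was -0.11 (adjusted p of 0.293). Psmd4, a ubiquitin receptor, was called higher in STS+OXP relative to STS, at 0.24 (adjusted p of 0.0392). The call was lost when each array was centred on its median, and without CTR 3, STS 2, STS 3 or any one STS+OXP array, at 0.20 to 0.26 (adjusted p of 0.0551 to 0.144). It was also lost with the probe sets of Psmd4 averaged. The probe set used differed from CTR by -0.13 in STS, 0.16 after OXP and 0.11 in STS+OXP. Its 2 dimmer probe sets gave -0.18, -0.37 and -0.13 and 0.05, -0.01 and 0.10.

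In the lid, Psmd14, Psmd13 and Psmd3 fell. These 3 of 8 genes, or 37.5%, were called lower in OXP and in STS+OXP cells, beside 13.9% and 14.2% of all genes. Among the genes above the median signal the shares were 23.6% and 25.2%. In STS 1 of 8, or 12.5%, was called lower, beside 6.74% of all genes and 11.6% of those above the median signal. Psmd14 encodes the deubiquitinase that removes ubiquitin chains from substrates as they enter. Its signal was 9.85, 9.80 and 9.72 on the CTR arrays, 9.68, 9.63 and 9.60 in STS, 9.23, 9.29 and 9.08 after OXP and 9.21, 9.32 and 9.24 in STS+OXP. The highest array with OXP was at 9.32 and the lowest without it at 9.60. The log2 fold change was -0.59 ± 0.07 (SE, adjusted p of 2.41e-05) in OXP, a 1.51-fold decrease, -0.54 ± 0.07 (SE, adjusted p of 5.77e-05) in STS+OXP and -0.16 (adjusted p of 0.183) in STS. Psmd13, a scaffold subunit, had a signal of 7.87, 7.83 and 7.84 on the CTR arrays, 7.37, 7.68 and 7.31 in STS, 7.14, 7.42 and 7.44 after OXP and 7.12, 7.08 and 7.25 in STS+OXP. No treated array reached the CTR arrays. It was called lower in all 3 conditions, with log2 fold changes of -0.39 ± 0.10 (SE, adjusted p of 0.0199) in STS, -0.51 ± 0.10 (SE, adjusted p of 0.00159) in OXP and -0.70 ± 0.10 (SE, adjusted p of 0.000134) in STS+OXP. The STS call was lost without CTR 1, CTR 3, STS 1 or STS 3, at -0.40 to -0.32 (adjusted p of 0.0561 to 0.102).

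Psmd3, a further scaffold subunit of the lid, fell, with log2 fold changes of -0.47 (adjusted p of 0.00092) in OXP and -0.27 (adjusted p of 0.0305) in STS+OXP, and was at -0.03 in STS. Its STS+OXP call was lost without any one CTR array, STS+OXP 1 or STS+OXP 3, at -0.29 to -0.22 (adjusted p of 0.0595 to 0.134). Psmd7, the partner of Psmd14, ranged widely, with a signal of 8.01, 7.92 and 7.47 on the CTR arrays, 7.92, 8.03 and 8.11 in STS, 6.35, 7.84 and 7.51 after OXP and 7.69, 7.40 and 7.54 in STS+OXP. Array OXP 1 was the lowest, and the OXP difference of -0.57 (adjusted p of 0.152) was -0.13 (adjusted p of 0.576) without that array and -0.87 (adjusted p of 0.0167) without OXP 2. Psmd11 was lower in STS+OXP than in STS, at -0.31 (adjusted p of 0.0267), a call that was lost without any one of these 6 arrays, at -0.32 to -0.28 (adjusted p of 0.0528 to 0.0928). The call was also lost with its probe sets averaged, some of which did not exceed the control probe sets in any group. Its second-brightest probe set differed from CTR by -0.22 in STS, -0.59 after OXP and -0.47 in STS+OXP. The probe set used gave 0.15, -0.15 and -0.15, so the 2 went in opposite directions in STS. Psmd6, Psmd8 and Psmd12 were called in no comparison, although Psmd8 passed in STS+OXP without OXP 1 or OXP 3, both at -0.24 (adjusted p of 0.0168 and 0.0242). The median of the 8 lid genes was -0.04 in STS, -0.32 after OXP and -0.25 in STS+OXP, and that of the 8 base genes -0.02, 0.00 and -0.14.

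The PA28 activators separated by type. Psme1 and Psme2 encode PA28α and PA28β, which form a joint ring on the core and are known for their role in preparing peptides for MHC class I, and Psme3 encodes the nuclear PA28γ. The sequences of the 250 bases before their starts are shown because PA28α and PA28β moved together and PA28γ moved against them, with the promoter of the catalytic gene Psmb5 beside them. They come from RefSeq, build GRCm38.p6, a C57BL/6J reference, and are written 5′ to 3′ on the strand of the gene, in lower case. Psme1 lies at chr14:55578244-55578493, plus strand, Psme2 at chr14:55591102-55591351, minus strand, Psme3 at chr11:101315963-101316212, plus strand and Psmb5 at chr14:54617996-54618245, minus strand. Capitals mark a match to 1 of 4 motifs searched on both strands: the antioxidant response element TGACNNNGC, which NRF1 and NRF2 bind, the CCAAT box CCAAT, the interferon-stimulated response element GAAANNGAAA and the gamma-activated sequence TTCNNNGAA.
Psme1: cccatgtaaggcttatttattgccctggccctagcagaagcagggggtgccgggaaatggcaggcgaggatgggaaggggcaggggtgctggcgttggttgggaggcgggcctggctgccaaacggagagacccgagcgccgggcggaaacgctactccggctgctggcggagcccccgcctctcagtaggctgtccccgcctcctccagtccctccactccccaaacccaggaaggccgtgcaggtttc
Psme2: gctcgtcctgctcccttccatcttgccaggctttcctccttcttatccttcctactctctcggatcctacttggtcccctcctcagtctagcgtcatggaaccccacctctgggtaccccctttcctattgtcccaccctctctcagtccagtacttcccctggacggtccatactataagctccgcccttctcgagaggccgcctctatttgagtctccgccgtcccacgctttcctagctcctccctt
Psme3: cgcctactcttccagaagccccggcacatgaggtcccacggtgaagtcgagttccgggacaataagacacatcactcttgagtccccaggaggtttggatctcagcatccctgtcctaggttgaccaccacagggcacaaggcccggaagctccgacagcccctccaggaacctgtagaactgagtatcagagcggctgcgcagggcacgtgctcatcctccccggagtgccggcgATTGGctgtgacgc
Psmb5: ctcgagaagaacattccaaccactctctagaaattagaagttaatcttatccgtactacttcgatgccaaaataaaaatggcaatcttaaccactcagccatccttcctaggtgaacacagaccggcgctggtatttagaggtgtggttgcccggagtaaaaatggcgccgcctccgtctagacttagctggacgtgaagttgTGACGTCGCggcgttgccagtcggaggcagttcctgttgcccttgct
The windows of Psme1 and Psme2 hold none of these letters, that of Psme3 holds a CCAAT box on the opposite strand and that of Psmb5 an antioxidant response element.

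A promoter was listed for 34 of the 42 members. The antioxidant response element was in 4 of them (Psmb5, Psmb6, Psmd9 and Psmd12), or 11.8%, beside 11.5% of all 27025 genes in the table. The CCAAT box was in 12, or 35.3%, beside 37.5%. The interferon-stimulated response element was in 3 (Psmb3, Psmd4 and Psmd9), or 8.82%, beside 3.46%, and the gamma-activated sequence in 1 (Psmg1), or 2.94%, beside 8.13%. Matches are descriptions of letters, and a window without one says nothing about the factor. None of the interferon-related letters stood before Psme1 or Psme2, and among the immunoproteasome genes the gamma-activated sequence was before Psmb8 alone.

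Psme1 rose in every condition. Its signal was 8.50, 8.53 and 8.59 on the CTR arrays, 9.80, 9.82 and 9.84 in STS, 9.82, 9.99 and 9.69 after OXP and 9.98, 9.95 and 10.00 in STS+OXP. Every treated array was above every CTR array by more than 1 log2 unit, and the treated groups lay close together. The log2 fold change was 1.28 ± 0.08 (SE, adjusted p of 1.19e-07) in STS, a 2.43-fold increase, 1.29 ± 0.08 (SE, adjusted p of 2.11e-08) in OXP and 1.44 ± 0.08 (SE, adjusted p of 7.85e-09) in STS+OXP, or 2.7-fold. Psme2 had a signal of 8.99, 8.75 and 8.70 on the CTR arrays, 9.65, 9.72 and 9.72 in STS, 9.71, 9.86 and 9.68 after OXP and 9.81, 9.79 and 9.79 in STS+OXP. Again no treated array overlapped with CTR, and the highest treated value came from OXP 2. The log2 fold change was 0.89 ± 0.08 (SE, adjusted p of 7.21e-06) in STS, 0.94 ± 0.08 (SE, adjusted p of 9.53e-07) in OXP and 0.98 ± 0.08 (SE, adjusted p of 6.08e-07) in STS+OXP, or 1.98-fold. The 2 genes lie near each other on chromosome 14 with Emc9 between them in the RefSeq order, and Emc9 differed from CTR by -0.10 in STS, -0.05 after OXP and -0.02 in STS+OXP, none of which passed the test.

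Psme3 went the other way. The signal of this PA28γ gene was 7.12, 7.06 and 6.98 on the CTR arrays, 6.66, 6.46 and 6.50 in STS, 6.38, 6.22 and 5.99 after OXP and 5.86, 6.12 and 6.10 in STS+OXP. The treated arrays were all below the CTR arrays, and the STS arrays were above those with OXP. It fell, with log2 fold changes of -0.51 ± 0.10 (SE, adjusted p of 0.00375) in STS, -0.86 ± 0.10 (SE, adjusted p of 1.94e-05) in OXP and -1.02 ± 0.10 (SE, adjusted p of 3.79e-06) in STS+OXP, a 2.03-fold decrease. Relative to STS alone, STS+OXP gave a log2 fold change of -0.51 (adjusted p of 0.00262). A second, dimmer probe set of Psme3 gave smaller differences of -0.13, -0.20 and -0.57, and the average of both gave -0.32, -0.53 and -0.80, all of them called. Psmf1, which encodes PI31, named for inhibiting the core in vitro, had a signal of 6.69, 6.52 and 6.64 on the CTR arrays, 6.53, 6.40 and 6.44 in STS, 6.60, 6.54 and 6.72 after OXP and 6.49, 6.46 and 6.55 in STS+OXP. Its groups overlapped and it was called in no comparison, with -0.16 (adjusted p of 0.184) in STS, 0.00 after OXP and -0.12 in STS+OXP. Its 3 dimmer probe sets gave positive differences from CTR of 0.16 to 0.51, and the average of all 4 reversed the STS+OXP value to 0.23, so the direction of Psmf1 depends on the probe set.

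**Figure D3:**
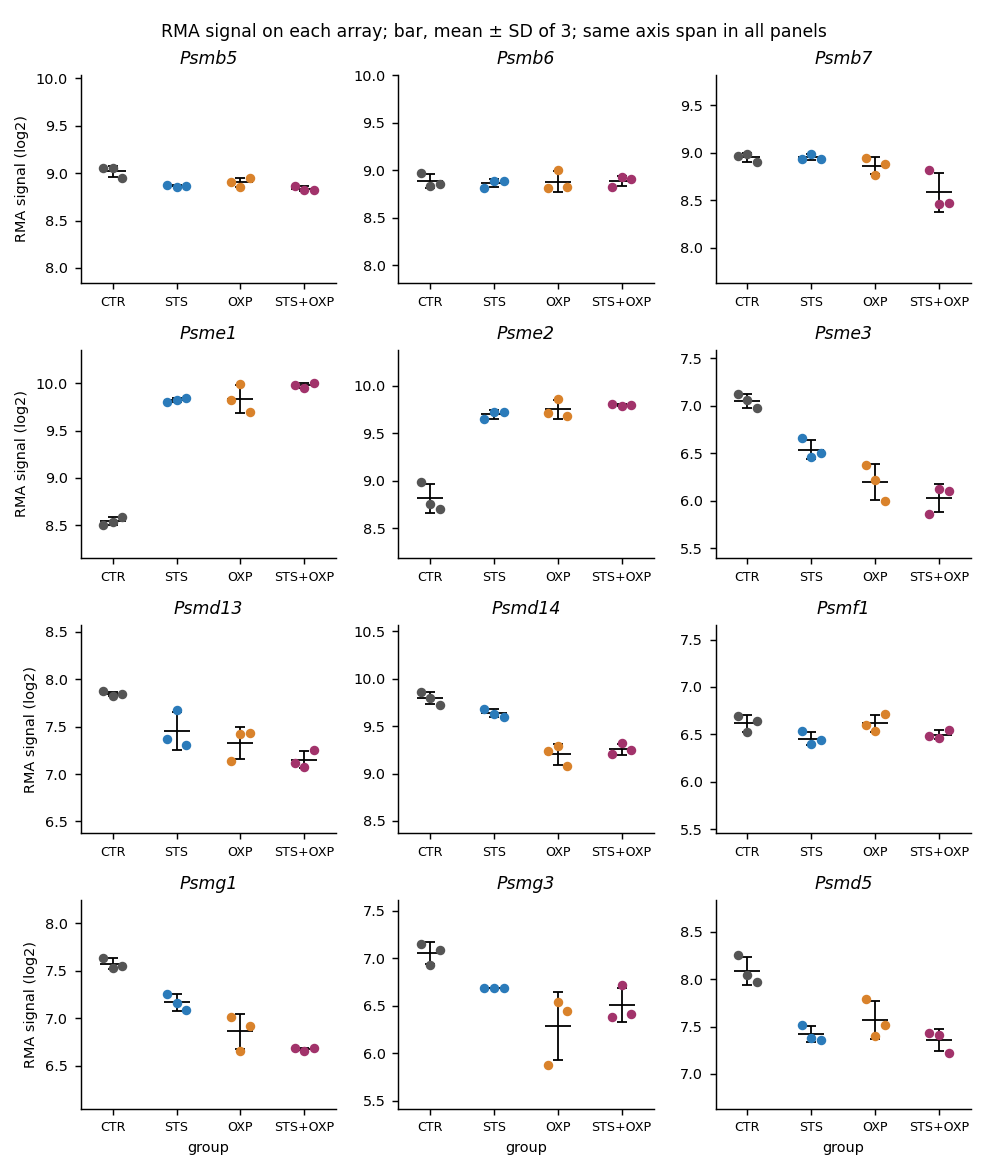
RMA signal (log2) on each array for 12 proteasome genes in CTR, STS, OXP and STS+OXP, with the mean and SD of 3 arrays as bars and the same axis span in each panel. Psme1 and Psme2 rise from CTR to all treated groups, Psme3, Psmd13, Psmg1, Psmg3 and Psmd5 are lower in them, Psmd14 is lower where OXP was given, and Psmb5, Psmb6 and Psmf1 stay almost level.

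The immunoproteasome genes left out of the members rose beside the activators. These catalytic subunits replace Psmb5, Psmb6 and Psmb7 in the core of cells exposed to interferon. Psmb8 had a signal of 6.86, 6.82 and 6.86 on the CTR arrays, 8.90, 9.14 and 9.13 in STS, 8.70, 9.31 and 8.86 after OXP and 9.22, 9.21 and 9.24 in STS+OXP, a rise of 2.22 (adjusted p of 7.06e-08) in STS, 2.11 (adjusted p of 2.18e-08) in OXP and 2.38 (adjusted p of 7.01e-09) in STS+OXP. With its probe sets averaged Psmb8 was at 1.19 to 1.41 in these comparisons. Psmb9 rose by 1.97 (adjusted p of 1.2e-07), 1.90 (adjusted p of 3.55e-08) and 2.17 (adjusted p of 9.53e-09), and Psmb10 by 1.75 (adjusted p of 5.03e-07), 1.47 (adjusted p of 6.47e-07) and 1.69 (adjusted p of 1.67e-07). The constitutive catalytic subunits Psmb5, Psmb6 and Psmb7 differed from CTR by -0.37 to 0.00, while the replacing subunits were higher by 1.47 to 2.38.

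Among the assembly factors, Psmg1 and Psmd5 fell in every condition. Of 6 measured chaperone genes, 2 fell in STS, 4 after OXP and 5 in STS+OXP, and none rose. That is 33.3%, 66.7% and 83.3% called lower, beside 6.74%, 13.9% and 14.2% of all genes and 11.6%, 23.6% and 25.2% of those above the median signal. Their median log2 fold change was -0.19, -0.49 and -0.60. Psmg1 and Psmg2 form a pair that helps to build the alpha ring. Psmg1 had a signal of 7.64, 7.53 and 7.55 on the CTR arrays, 7.26, 7.16 and 7.08 in STS, 7.01, 6.66 and 6.92 after OXP and 6.69, 6.66 and 6.68 in STS+OXP. The groups stepped down in the order CTR, STS, OXP and STS+OXP, with OXP 2 among the STS+OXP arrays. The log2 fold change was -0.41 ± 0.09 (SE, adjusted p of 0.00616) in STS, -0.71 ± 0.09 (SE, adjusted p of 2.53e-05) in OXP and -0.90 ± 0.09 (SE, adjusted p of 2.88e-06) in STS+OXP, a 1.86-fold decrease. Psmg2 was at 0.01 in STS but fell, with log2 fold changes of -0.46 (adjusted p of 0.0226) in OXP and -0.66 (adjusted p of 0.00251) in STS+OXP, and its second probe set gave -0.06, -0.80 and -1.23. The OXP call was lost without CTR 2, at -0.38 (adjusted p of 0.0928), and without OXP 3, at -0.28 (adjusted p of 0.0847).

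The other pair of core chaperones was split. Psmg3 had a signal of 7.15, 6.93 and 7.09 on the CTR arrays, 6.69, 6.69 and 6.68 in STS, 5.88, 6.54 and 6.45 after OXP and 6.39, 6.72 and 6.42 in STS+OXP. All treated arrays were below the CTR arrays, and OXP 1 was the lowest. Psmg3 fell, with log2 fold changes of -0.77 ± 0.14 (SE, adjusted p of 0.00086) in OXP and -0.55 ± 0.14 (SE, adjusted p of 0.00928) in STS+OXP. Its STS difference of -0.37 (adjusted p of 0.109) passed the test only without OXP 1 among the analyses that left out 1 array, at -0.37 (adjusted p of 0.00925). The STS difference also passed with array quality weights and with the CTR and STS arrays fitted alone. Psmg4, its partner, was called in no comparison. Psmd5 and Psmd9 are chaperones of the base in spite of their symbols. Psmd5 had a signal of 8.25, 8.04 and 7.96 on the CTR arrays, 7.52, 7.38 and 7.36 in STS, 7.79, 7.40 and 7.51 after OXP and 7.43, 7.41 and 7.22 in STS+OXP. It was the member with the largest decrease in STS, at -0.67 ± 0.11 (SE, adjusted p of 0.00075), and fell also, with log2 fold changes of -0.52 (adjusted p of 0.00183) in OXP and -0.73 (adjusted p of 0.000112) in STS+OXP. Psmd9 had a signal of 6.15, 6.22 and 5.94 on the CTR arrays, 6.20, 6.02 and 6.08 in STS, 5.89, 5.92 and 5.93 after OXP and 5.74, 5.77 and 5.89 in STS+OXP. It fell in STS+OXP, at a log2 difference of -0.30 (adjusted p of 0.0137), and a second, dimmer probe set gave 0.02 there, with -0.05 (adjusted p of 0.651) for the average. The call was lost without CTR 1, CTR 2 or STS+OXP 1, at -0.28 to -0.24 (adjusted p of 0.0503 to 0.0677).

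With OXP added to starved cells, Psme3, Psmd14 and several assembly factors fell and Psme1 and Psme2 were not called. In STS+OXP relative to STS cells 2 members (Psmb3 and Psmd4) were higher and 10 lower, or 4.76% and 23.8%, against 10.8% and 11.2% of all genes. Among the genes above the median signal 19.1% were called higher and 20.4% lower, so the share of members called lower was close to theirs. The lower members were Psma1, Psma5, Psmb7, Psmd1, Psmd11, Psmd14, Psme3, Psmd9, Psmg1 and Psmg2. With each array centred on its median the split was 0 higher and 13 lower, with Psmc3, Psmd13 and Psmg4 gained. The count of 12 called members was 5 without array STS+OXP 2, where Psma1 (at -0.29, adjusted p of 0.0592), Psmb3, Psmb7, Psmd1, Psmd4, Psmd9 and Psmd11 were lost, and 17 without OXP 1. The Psmd9 call, at -0.30 (adjusted p of 0.0209), was also lost without STS 1, STS 3 or STS+OXP 1, and was -0.31 to -0.24 in these 4 analyses (adjusted p of 0.0528 to 0.0979). The OXP difference in control medium and that in STS medium, which share no array, had a Pearson correlation of 0.68 over the 42 members, with no p because genes are not independent replicates, and of 0.75 over all genes. Psme1 and Psme2 left this relation, with 1.29 and 0.94 in control medium but 0.16 (adjusted p of 0.182) and 0.10 (adjusted p of 0.485) in STS medium, as the plot of the OXP difference in either medium shows.

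**Figure D4:**
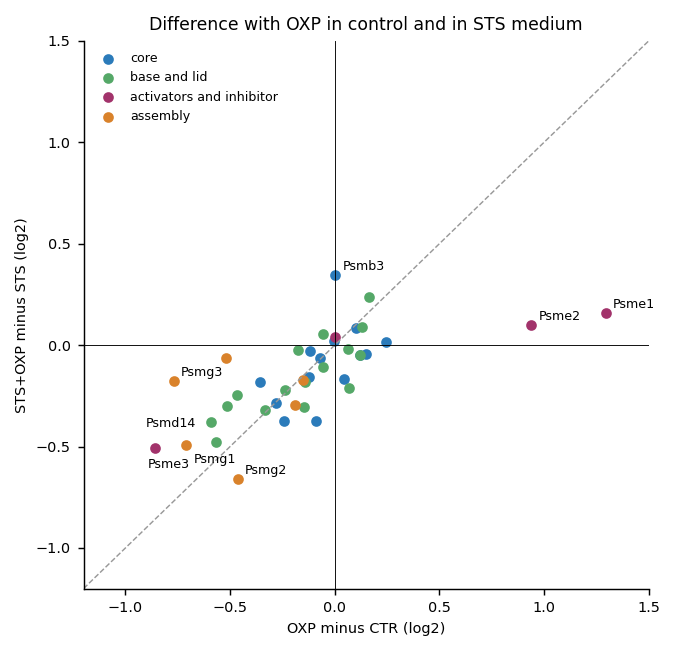
Log2 difference OXP minus CTR (horizontal) and STS+OXP minus STS (vertical) for 40 proteasome genes coloured by role, with a dashed line of equal differences. Most genes lie near 0 or to the lower left of it, while Psme1 and Psme2 lie far to the right of it, at 1.29 and 0.94 on the horizontal axis and 0.16 and 0.10 on the vertical axis.

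STS added to OXP gave no call among the members. In STS+OXP relative to OXP cells 0 of 42 members passed the limma test, 4 had an unadjusted p under 0.05, and the test with unequal variances that the study's methods give for culture experiments also called 0. Of all genes 0.0117% were called and 12.6% had an unadjusted p under 0.05. Without OXP 2 the count was 1, with Psmg1 passing, at -0.29 (adjusted p of 0.0438). The interaction, which asks whether the effect of STS differed with and without OXP, called 2 members lower and 0 higher, beside 5.76% and 2.53% of all genes. Psmd5 was also called higher under cyclic loess, with the replicate number as a block, and without OXP 1, at 0.56 (adjusted p of 0.0168). Psmg3 was called higher without OXP 2, at 0.72 (adjusted p of 0.0331), and Psmb7 lower without STS+OXP 1, at -0.40 (adjusted p of 0.0377). In the reported fit the lower members were Psme1, at -1.14 ± 0.11 (SE, adjusted p of 2.2e-05), and Psme2, at -0.84 ± 0.12 (SE, adjusted p of 0.000501). Both genes rose with STS in control medium, while on top of OXP the STS difference did not pass the test, at 0.14 for Psme1 and 0.04 for Psme2. The same held for Psmb8, with an interaction of -1.95, Psmb9, with -1.70, and Psmb10, with -1.53. Without OXP 2, however, the STS difference on top of OXP passed for Psmb8, at 0.45 (adjusted p of 0.00858), and for Psmb9, at 0.41 (adjusted p of 0.034).

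Among factors that work on the regulatory particle, Uchl5 had the largest difference with OXP. Of 9 measured genes of this list, 2 were called in STS, 4 after OXP and 4 in STS+OXP. These shares of 22.2%, 44.4% and 44.4% lay above those of all genes (16.5%, 31.4% and 30.6%) and below those of genes above the median signal (29.8%, 55.4% and 54.6%). Uchl5, a deubiquitinase of the proteasome, had a signal of 8.45, 8.65 and 8.60 on the CTR arrays, 8.31, 8.17 and 8.21 in STS, 7.45, 7.11 and 7.01 after OXP and 7.04, 6.80 and 6.81 in STS+OXP. Every array with OXP was below every array without it. It fell, with log2 fold changes of -1.38 ± 0.11 (SE, adjusted p of 3.86e-07) in OXP and -1.69 ± 0.11 (SE, adjusted p of 5.5e-08) in STS+OXP, a 3.22-fold decrease, and was at -0.34 (adjusted p of 0.0539) in STS, which passed without any one OXP array, at -0.34 (adjusted p of 0.0107 to 0.0499). With its probe sets averaged Uchl5 was at -0.72 in OXP cells and -0.92 in STS+OXP cells, which kept both calls. Usp14, the other proteasome-bound deubiquitinase, fell in STS+OXP, at a log2 difference of -0.74 (adjusted p of 0.00204). Zfand2a, an arsenite-inducible protein that binds the regulatory particle, had a signal of 8.54, 8.51 and 8.36 on the CTR arrays, 8.06, 8.16 and 8.07 in STS, 9.36, 9.13 and 9.32 after OXP and 9.10, 9.20 and 9.16 in STS+OXP. It fell in STS, with a log2 difference of -0.37 (adjusted p of 0.00524), and rose in OXP, at 0.80 (adjusted p of 3.09e-06), and in STS+OXP, at 0.68 (adjusted p of 1.34e-05). Ecpas, an adaptor that tethers core and regulatory particle, rose in STS by 0.79 (adjusted p of 0.00478), and its OXP value of 0.19 was 0.45 (adjusted p of 0.00267) without OXP 3 and reversed to -0.33 without OXP 1 and OXP 2, where a single OXP array is left. Txnl1, a thioredoxin-like protein of the base, fell in OXP and STS+OXP and Sem1 was called higher in OXP, while Pomp, the maturation factor of the core, was called in none.

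Of 6 measured genes around NRF1, 2 rose and 1 fell in STS, 3 rose and 1 fell in OXP, and 2 rose and 0 fell in STS+OXP. The shares called were 50%, 66.7% and 33.3%, beside 16.5%, 31.4% and 30.6% of all genes and 29.8%, 55.4% and 54.6% of those above the median signal. Nfe2l1 itself had a signal of 7.55, 7.46 and 7.34 on the CTR arrays, 7.27, 7.21 and 7.20 in STS, 5.11, 7.20 and 6.64 after OXP and 7.15, 7.41 and 7.15 in STS+OXP. Array OXP 1 was far below the rest. Nfe2l1 fell in OXP, at a log2 difference of -1.13 ± 0.36 (SE, adjusted p of 0.0255), and the value without OXP 1 was -0.53 (adjusted p of 0.00737). The call was lost without any one CTR array, at -1.19 to -1.08 (adjusted p of 0.053 to 0.078). In STS+OXP it was at -0.22 (adjusted p of 0.742). Nfe2l2 (NRF2), a related factor that responds to oxidants, rose by 0.27 (adjusted p of 0.0345) in STS, 0.88 (adjusted p of 1.1e-06) in OXP and 0.66 (adjusted p of 1.67e-05) in STS+OXP. Its STS call was lost without CTR 1, CTR 3 or any one STS array, at 0.25 to 0.29 (adjusted p of 0.0607 to 0.109), and with its probe sets averaged, at 0.12. Maff, a partner of these factors, rose by 0.58 (adjusted p of 0.00446) in OXP and 0.81 (adjusted p of 0.000373) in STS+OXP. Ngly1, the glycanase that activates NRF1, rose by 0.34 (adjusted p of 0.0269) in STS and 0.34 (adjusted p of 0.0131) in OXP and was at 0.05 in STS+OXP. Without CTR 1 both calls were lost, at 0.25 (adjusted p of 0.128) and 0.26 (adjusted p of 0.0676), and the STS call also without any one STS array, at 0.33 to 0.36 (adjusted p of 0.0576 to 0.0898). Mafk fell in STS, and Mafg was called in no comparison.

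Of 7 measured genes for ubiquitin and its delivery, 1 fell in STS, 2 after OXP and 4 in STS+OXP, and none rose. The shares called were 14.3%, 28.6% and 57.1%, beside 16.5%, 31.4% and 30.6% of all genes and 29.8%, 55.4% and 54.6% of those above the median signal. Ubqln4, a shuttle that carries ubiquitinated proteins to the proteasome, fell, with log2 fold changes of -0.72 (adjusted p of 0.000144) in OXP and -0.75 (adjusted p of 0.0001) in STS+OXP. Rad23b, another shuttle, fell, with a log2 difference of -0.52 (adjusted p of 0.00721) in STS+OXP, but was at -0.15 (adjusted p of 0.233) with its probe sets averaged. Nploc4 and Ufd1, cofactors of the unfoldase p97, had small changes, with Nploc4 at -0.27 (adjusted p of 0.0469) in OXP and -0.32 (adjusted p of 0.0209) in STS+OXP and Ufd1 at -0.37 (adjusted p of 0.0485) in STS. The Nploc4 call in OXP was lost in 17 of 23 other analyses, at -0.29 to -0.15 (adjusted p of 0.0539 to 0.177) where 1 array was left out, every array except OXP 2 and OXP 3 in turn. Its STS+OXP call was lost without CTR 2, CTR 3, STS+OXP 2 or STS+OXP 3, at -0.33 to -0.30 (adjusted p of 0.0501 to 0.0741). The Ufd1 call was lost in 13 other analyses, those without any one CTR or STS array, OXP 3 or STS+OXP 3 among them, at -0.40 to -0.30 (adjusted p of 0.0541 to 0.152), and it was -0.05 with specific probe sets alone.

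The remaining matches of the pattern differ in kind. Psma8, the testis form of an alpha subunit, had a signal of 2.41 to 2.71 and Psmb11, the thymus form of a beta subunit, of 2.59 to 3.02. Both stayed at or below the control probe sets in every group and were called in no comparison, so 40 of the 42 members were measured above that level. Psmc3ip, a protein of homologous recombination, fell, with log2 fold changes of -0.93 (adjusted p of 0.000195) in OXP and -1.43 (adjusted p of 3.81e-06) in STS+OXP and was at -0.08 in STS. Psme3ip1, named as a PA28γ-interacting protein, rose by 0.30 (adjusted p of 0.00692) in OXP and 0.34 (adjusted p of 0.00303) in STS+OXP, in the opposite direction to Psme3.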

How the data were processed

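Per the labels, RNA was hybridised to Affymetrix GeneAtlas arrays with the 3′ IVT Express kit, and the deposited values are log2 signals that the authors made by RMA, with R 3.02 named in the submitters' processing notes. Of 45141 probe sets, 28898 named 1 gene, 551 several and 15588 none, and 104 were controls. For each of 17097 genes the probe set with that gene alone and the highest mean was used. The 4 group means of the 12 arrays were fitted with limma 3.58.1 in R 4.3.3 (8 residual degrees of freedom, prior 5.05), and 6 contrasts were adjusted by Benjamini-Hochberg over all genes. The level of the control probe sets was the highest of 22 background controls on each array, averaged within a group.

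The members and lists were chosen with earlier results of these data known. Signals on every array, or log2 fold changes, were given for the catalytic subunits, the activators, Psmf1, the 2 members of each role with the largest change against CTR, members called in the interaction, and up to 4 called genes of each other list. Psmb8 to Psmb10 served for comparison, and other genes were named after their values were seen. Promoters came from RefSeq, build GRCm38.p6. The fit was tested on simulated data, and 24 alternatives were run. The 3 arrays in each group limit the precision.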

Additional observations from a re-analysis of the deposited data

Results flagged for a closer look

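The difference that STS made depended on whether OXP was present for 7 of the genes named here, by the interaction term of the limma fit. The interaction called 4.76% of the members, beside 8.29% of all genes and 15.2% of those above the median signal, so such a dependence was not particular to these genes. In control medium Psme1 rose by 1.28 and Psme2 by 0.89 with STS, whereas on top of OXP the STS differences were 0.14 and 0.04. The interaction was -1.14 (adjusted p of 2.2e-05) for Psme1 and -0.84 (adjusted p of 0.000501) for Psme2. The immunoproteasome genes had interactions of -1.95 (adjusted p of 1.5e-05) for Psmb8, -1.70 (adjusted p of 2.92e-05) for Psmb9 and -1.53 (adjusted p of 0.000104) for Psmb10. Their STS differences were 2.22, 1.97 and 1.75 in control medium and 0.27, 0.27 and 0.22 with OXP. Ngly1, the glycanase of NRF1, had an interaction of -0.64 (adjusted p of 0.0101), with STS differences of 0.34 without and -0.30 with OXP. Nfe2l2 had an interaction of -0.49 (adjusted p of 0.0159), with 0.27 without and -0.22 with OXP.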

How the results depend on the processing

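Of the recomputed counts of called members, 131 stayed within 1.5 times the reported count and 11 did not. The 6 reported counts are 6 for STS, 14 for OXP and 16 for STS+OXP against CTR, 0 for STS+OXP against OXP, 12 for STS+OXP against STS and 2 for the interaction. With array quality weights the counts were 10 for STS and 20 for STS+OXP against STS. With a fold of at least 1.5 required as well, they were 3 for STS, 6 for OXP, 7 for STS+OXP and 1 for STS+OXP against STS. The test with unequal variances gave 1 for STS, 3 for OXP and 6 for STS+OXP against STS. Leaving out 1 array gave 0 to 1 for STS+OXP against OXP and 5 to 17 for STS+OXP against STS.

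The median log2 fold change of the members moved by more than its SD between arrays (0.0255) in 13 cases and by less in 106. For STS+OXP against CTR it was -0.17, and -0.20 with each array centred on its median, -0.14 under cyclic loess, -0.087 with a gene's probe sets averaged and -0.14 with quality weights. For STS+OXP against STS it was -0.13, and -0.17, -0.094 and -0.064 under the first 3 of these. Under cyclic loess it was -0.011 for STS+OXP against OXP, reported as -0.06, and 0.043 for the interaction, reported as -0.01. Without 1 array it was -0.13 to -0.071 for OXP, reported as -0.10, and -0.039 to 0.014 for the interaction. Without OXP 1 and OXP 2 together, an alternative chosen after seeing the data that leaves a single OXP array, it was 0.022 for STS+OXP against OXP and 0.022 for the interaction. Values of single named genes kept their direction and side of the threshold in 2803 cases, lost the call in 159, gained it in 58 and reversed in 2. Psmf1 reversed to 0.23 in STS+OXP with its probe sets averaged, and Ecpas to -0.33 in OXP without OXP 1 and OXP 2 together.

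The sources used here do not say whether arrays with the same replicate number belong together, and correlations between arrays cannot settle it. Deviations from the group means of same-numbered arrays correlated at -0.199 to 0.102 over 18 pairs and those of other arrays at -0.192 to 0.254 over 36 pairs. With the number as a replicate block the counts were 6, 14, 16, 0, 10 and 3. The cause of these changes was not tested.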
